A study of Mus musculus with 6 samples.

Results

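The JNK scaffold, MAPKAP kinase and Gadd45 genes were followed in the mouse lung tumour cell line 393P, with and without an shRNA against the kinase MKK4. They are 10 genes that work around the stress-activated kinases rather than as steps of the cascade itself: the scaffold genes Mapk8ip1, Mapk8ip3, Spag9 and Sh3rf1, the p38 effector kinase genes Mapkapk2, Mapkapk3 and Mapkapk5, and the stress sensor genes Gadd45a, Gadd45b and Gadd45g. The members were all probe sets annotated to exactly 1 of these genes, which gave 22 probe sets of the 45037 on the array that are not hybridisation controls, and 10 of 18193 measured genes. Another 4 probe sets annotated to both Mapkapk5 and Adam1a were left out by this rule, and 3 of them were above background on no array.

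The shRNA cultures, called 393P-shZ, carried a short hairpin RNA against MKK4, and the control cultures, called 393P-scr, carried a scrambled control vector. Each group had 3 arrays of biotin-labelled RNA, which the labels describe as triplicate cultures; p-values therefore cover the variation among cultures and not among independently made lines. All 6 cultures share the alleles of the line's mice of origin, p53R172H∆g/+ and K-rasLA1/+. The descriptions differ on how the vector was delivered, naming retroviral infection in one place and Lipofectamine transfection in another, and the sources used here do not say whether the lines are clones. The comparison asks how transcripts differ when MKK4 is depleted.

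JNK and p38 are MAP kinases that are switched on by stress and cytokines, each through a chain of upstream kinases, and MKK4 is one of the kinases that can activate both. Scaffold proteins hold members of a JNK chain together, and the JIP scaffolds also link cargo to kinesin motors. MAPKAP kinases are substrates of p38 or of related MAP kinases and carry the signal on to RNA-binding proteins, heat shock proteins and transcription factors. Gadd45 proteins are small acidic proteins made after DNA damage and other stress, which bind the upstream kinase MEKK4 and also contact PCNA and Cdk1.

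The target of the shRNA was lower in all 3 shRNA cultures. Map2k4, which encodes MKK4, gave 274 ± 29.7 intensity units in shRNA cultures and 645 ± 51.8 in control cultures (SD, n = 3 each) on its brighter probe set, and its other probe set also fell. Median intensities were 92 to 95.76 units over the 6 arrays. Background was taken as the highest of the 3 trpnX probe sets, which read a bacterial transcript that mouse cells lack and which reached 26.45 to 39.47 units. All 7 epithelial marker genes lay above it on every array and summed to 51538 to 52813 units in shRNA cultures and 52047 to 52511 in control cultures, with Epcam, Cdh1 and Cldn7 lower and Krt19 higher by the limma test. Of 7 lung lineage marker genes 5 lay above background on every array, Abca3 among them, which fell (log2 -0.17, limma adjusted p = 0.0465), while Nkx2-1 and Scgb1a1 were at background on every array. The 7 summed to 1168 to 1257 units in shRNA cultures and 1300 to 1339 in control cultures, and the part of this in any member's change was not tested. Among 20 fibroblast, leukocyte and endothelial marker genes limma called 0, and 1 had an unadjusted p under 0.05, against 24.1% of all genes. Not all of them were at background: 5 of 8 fibroblast, 3 of 7 leukocyte and 3 of 5 endothelial genes lay above it on every array. The ratio of the 3′ to the 5′ probe set of 18S ribosomal RNA was 0.276 to 0.358 in shRNA cultures and 0.392 to 0.424 in control cultures, while those of beta-actin and Gapdh overlapped between groups, and whether this bears on any member was not tested.

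Of the 10 genes, Gadd45a rose and Mapk8ip1 fell on 1 of its 2 probe sets, and the other 20 probe sets did not pass the test. Changes are log2 differences of intensity with a pseudocount of 16, shRNA minus control, tested with limma over all 45037 probe sets with Benjamini-Hochberg adjustment at 0.05. Over all probe sets 6.37% were called in either direction (3.57% higher and 2.79% lower), and among the 20 member probe sets above background on all 6 arrays the 2 calls stand beside 9.61% of all probe sets that bright. The share of members called is therefore near the background. The groups did not overlap in 3 of 22 member probe sets, against 23.1% of all probe sets. The median change of the 22 was -0.022, and that of all probe sets -0.0064.

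**Figure D1:**
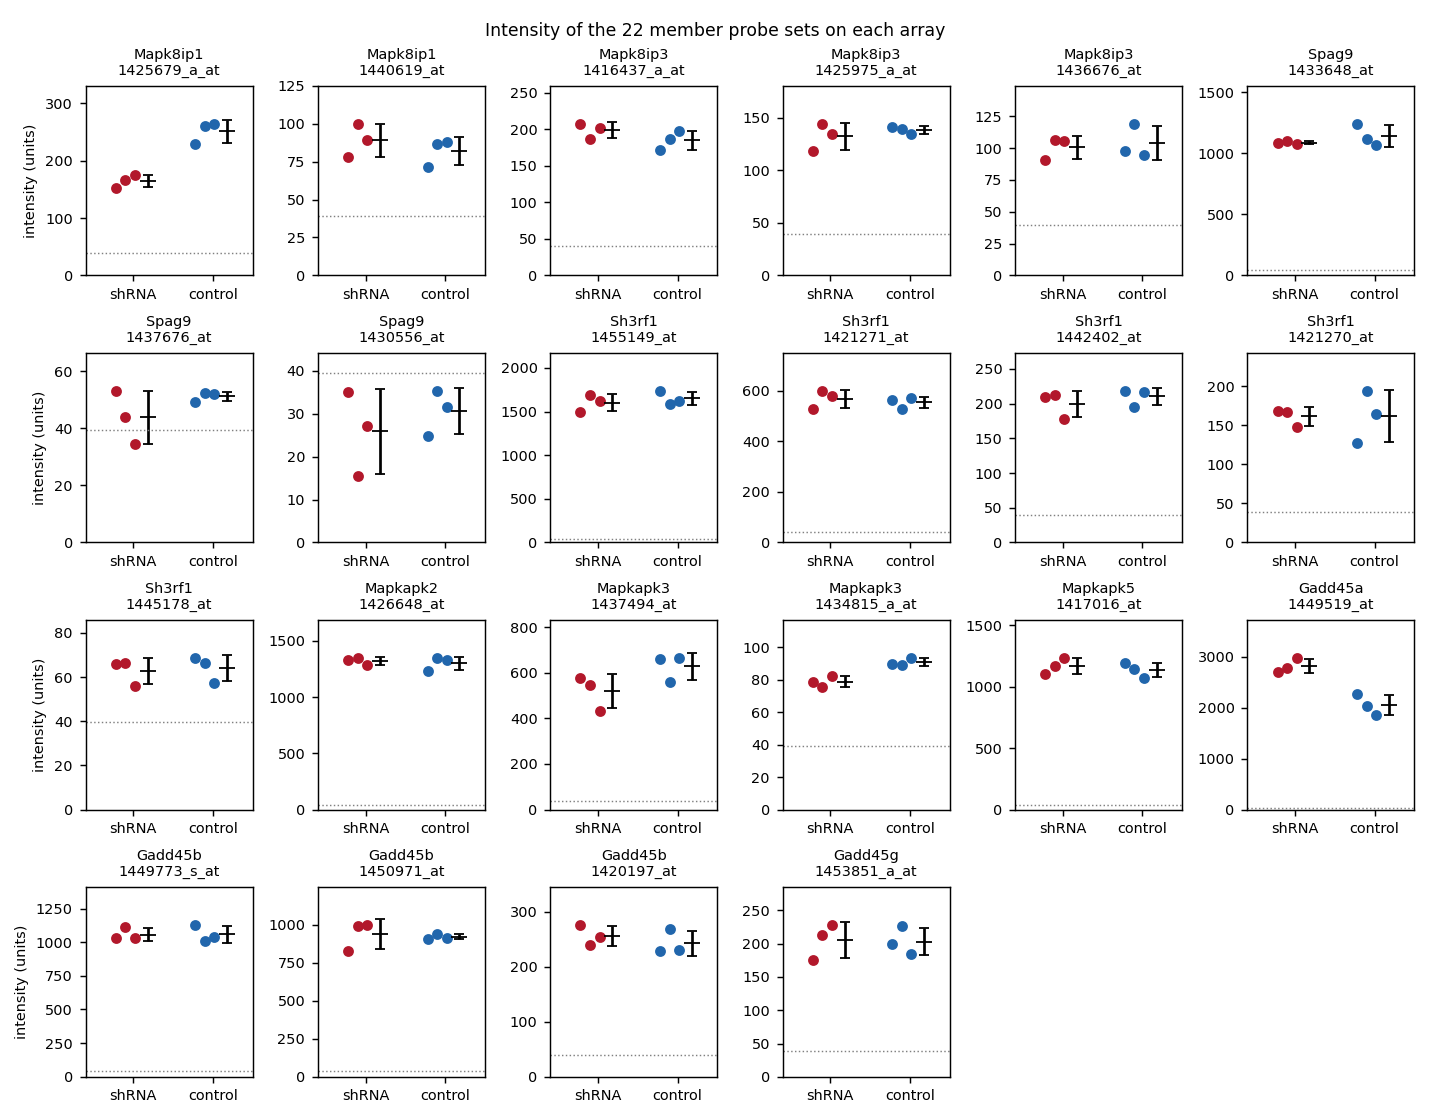
Intensity of each of the 22 member probe sets, in linear units with axes from 0 that differ between panels; points are the 3 shRNA and 3 control arrays, bars the mean and SD, and the dotted line the highest background control (39.47 units). The groups stand apart for Gadd45a, for the brighter Mapk8ip1 probe set and for the dimmer Mapkapk3 probe set, and overlap elsewhere.

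**Figure D2:**
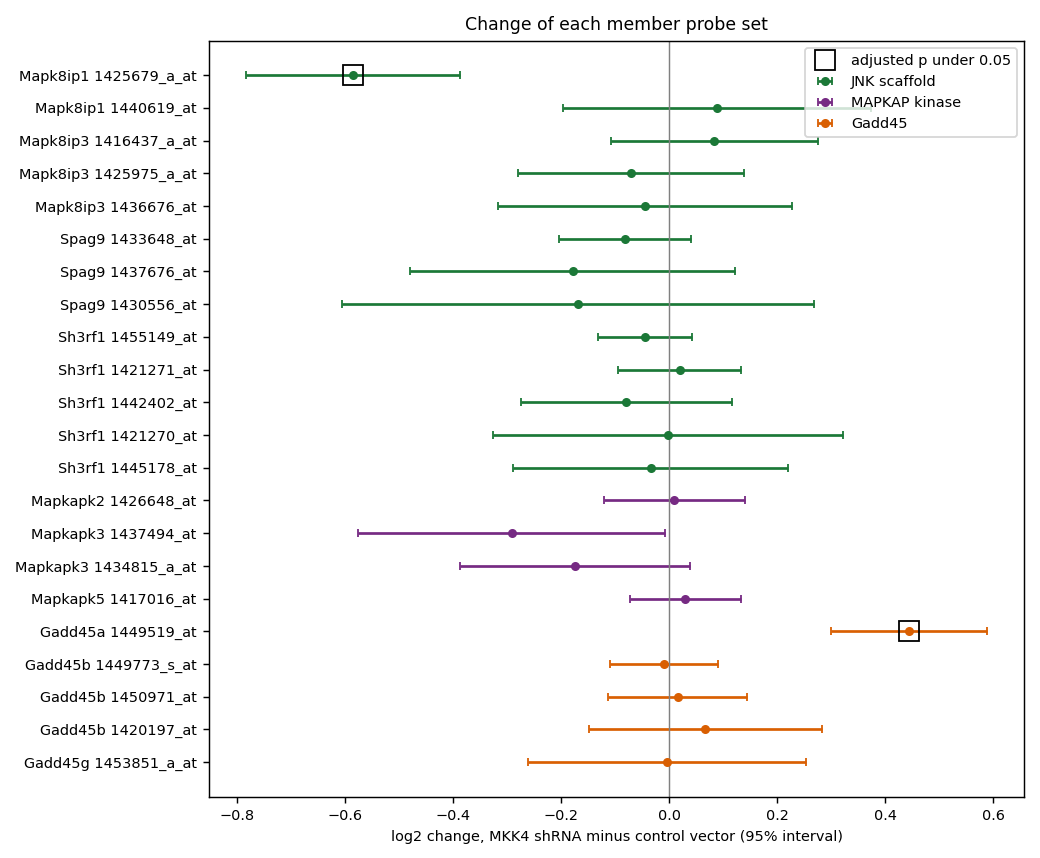
Log2 change of each member probe set (shRNA minus control, 95% interval), coloured by class, with squares around those with an adjusted p under 0.05. Gadd45a (0.44) and 1 Mapk8ip1 probe set (-0.59) lie clear of 0, while the other Mapk8ip1 probe set (0.09) does not.

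Among the scaffolds, Mapk8ip1 was the one with a call. It encodes JIP1, which assembles mixed-lineage kinases, MKK7 and JNK and serves as a kinesin adaptor. Its brighter probe set, 1425679_a_at, gave 153, 166 and 174 units in shRNA cultures, against 228, 261 and 265 units in control cultures. Every shRNA array lay below every control array. The fall was 1.50-fold, or -0.59 on the log2 scale (SE 0.085), and limma gave an adjusted p of 0.00838. The call was lost without shRNA replicate 2 (adjusted p = 0.0528) and without control replicate 2 (0.0515), and over 15 alternatives adjusted p ran from 0.000365 to 0.0528.

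The other Mapk8ip1 probe set did not pass. Probe set 1440619_at gave 77.9, 100.1 and 89.3 units in shRNA cultures, against 71.4, 87.0 and 88.2 units in control cultures. The groups overlapped, at a log2 change of 0.09 with a 95% interval of -0.20 to 0.37 (limma adjusted p = 0.782), and all 6 values lay above background. The intervals of the 2 probe sets do not meet. Tested directly, as the difference between the probe sets on each array, the changes differed by 0.67 on the log2 scale with an SE of 0.086 and an adjusted p of 0.0311 in limma over 16752 such pairs on the array, of which 0.561% passed. That call was lost in 8 of 14 alternatives, with adjusted p up to 0.186, including each of the 6 fits that left out 1 array (0.0667 to 0.157). In the array's naming scheme the suffix of the brighter probe set marks one that reads several transcripts of the same gene; where on the transcript each probe set lies was not analysed here. With both probe sets averaged the gene's log2 change was -0.25 and did not pass (limma adjusted p = 0.165).

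Mapk8ip1 lies on chromosome 2, whose 1399 measured genes had a median log2 change of -0.074, and 18.3% of them were called, against 11.8% of all genes. Its brighter probe set gave -0.50 (limma adjusted p = 0.0126) after each chromosome was centred on its own median, an alternative chosen after seeing the data.

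Mapk8ip3, which encodes JIP3, a scaffold for MKK4, MKK7 and JNK on transported vesicles, had 3 probe sets and 0 calls by limma. The brightest gave 208, 187 and 202 units in shRNA cultures, against 172, 187 and 197 units in control cultures. The highest value was an shRNA one, but the groups overlapped, and the log2 change was 0.08 with an interval of -0.11 to 0.28. The dimmer probe sets gave -0.07 and -0.04 and did not differ from the brightest beyond the test's threshold (limma adjusted p = 0.686 and 0.774).

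Spag9, which encodes JIP4, a relative of JIP3 that binds p38 as well as JNK, gave 1084, 1099 and 1077 units in shRNA cultures, against 1244, 1116 and 1072 units in control cultures on its brightest probe set. One control array was higher than the rest and the groups overlapped. The log2 change was -0.08, with an interval of -0.20 to 0.04. The other Spag9 probe sets were near background: 1437676_at was above it on 2 of 3 shRNA and 3 of 3 control arrays, and 1430556_at on 0 of 3 and 1 of 3. Their log2 changes of -0.18 and -0.17 had the same sign as the bright one and did not pass. Spag9 lies on chromosome 11, as Map2k4 does. The median log2 change of the 1443 measured genes there was 0.057, and 17.2% of them were called, against 11.8% of all genes. After chromosome centring the brightest Spag9 probe set gave -0.15 and still did not pass (limma adjusted p = 0.166).

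Sh3rf1, which encodes POSH, a RING-finger ubiquitin ligase that gathers Rac1, mixed-lineage kinases, MKK4 or MKK7 and JNK, was read by 5 probe sets. The brightest gave 1498, 1694 and 1619 units in shRNA cultures, against 1739, 1591 and 1627 units in control cultures. The shRNA values lay within or below the control range, the groups overlapped, and the log2 change was -0.05 with an interval of -0.13 to 0.04. The other 4 probe sets gave log2 changes of -0.08 to 0.02, and none passed the limma test of its difference from the brightest (adjusted p = 0.790 to 0.983). The scaffold genes apart from Mapk8ip1 thus gave 0 calls by limma among 11 probe sets, also at an unadjusted p of 0.05, which 18.6% of all probe sets passed.

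The MAPKAP kinase genes gave 0 calls by limma in 4 probe sets, and 1 had an unadjusted p under 0.05. Mapkapk2 encodes MK2, a p38 substrate that stabilises cytokine mRNAs through the RNA-binding protein tristetraprolin and phosphorylates the heat shock protein HSP27. Its probe set gave 1331, 1348 and 1281 units in shRNA cultures, against 1234, 1343 and 1325 units in control cultures. The ranges overlapped throughout, and the log2 change of 0.01 had an interval of -0.12 to 0.14.

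Mapkapk5 encodes PRAK, a kinase bound by the atypical MAP kinases ERK3 and ERK4. It gave 1099, 1171 and 1233 units in shRNA cultures, against 1191, 1141 and 1074 units in control cultures. The groups overlapped, and the log2 change was 0.03 with an interval of -0.07 to 0.13.

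Mapkapk3, which encodes MK3, a close relative of MK2 under the same p38 control, had lower means in shRNA cultures on both of its probe sets. The brighter one, 1437494_at, gave 575, 546 and 434 units in shRNA cultures, against 660, 560 and 665 units in control cultures. The third shRNA array was the lowest of all, and the groups overlapped by 1 array each. The log2 change was -0.29 with an interval of -0.58 to -0.01, an unadjusted p of 0.0452, which limma's adjustment raised to 0.253. The dimmer one, 1434815_a_at, gave 78.8, 75.5 and 82.6 units in shRNA cultures, against 89.7, 89.0 and 93.5 units in control cultures. Its groups did not overlap, but the log2 change of -0.18 (SE 0.091) did not pass, with an adjusted p of 0.377 in limma. The changes of the 2 probe sets did not differ beyond the test's threshold (0.832). Without shRNA replicate 3 the log2 change of the brighter probe set was -0.17. Fitted with 1 probe set a gene and without the dimmer genes, Mapkapk3 passed (limma adjusted p = 0.0461, against 0.177 with all genes). That was 1 of 16 alternatives of this fit, and the brighter probe set passed in 0 of 15.

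Of the 3 Gadd45 genes 1 passed the test. Gadd45a, a target gene of p53 that is induced by DNA damage and nutrient stress, rose. Its single probe set gave 2704, 2777 and 2973 units in shRNA cultures, against 2262, 2024 and 1859 units in control cultures. Every shRNA array lay above every control array. The rise was 1.36-fold, or 0.44 on the log2 scale (SE 0.062) with an interval of 0.30 to 0.59, and limma gave an adjusted p of 0.0073. It passed in 14 of 15 alternatives and was lost when the prior variance had no trend with intensity (adjusted p = 0.0543, over a range from 6.48e-05). In the fit with 1 probe set a gene it passed in all 16 alternatives. With 1 probe set the agreement between probe sets could not be examined.

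Gadd45b, which is induced by NF-kappaB and TGF-beta signals and whose protein can bind and inhibit MKK7, did not pass on any of its 3 probe sets. The brightest gave 1029, 1112 and 1031 units in shRNA cultures, against 1127, 1011 and 1037 units in control cultures. The groups overlapped, and the log2 change was -0.01 with an interval of -0.11 to 0.09. The other probe sets gave 0.02 and 0.07, and their groups overlapped as well. Gadd45g, a gene of differentiation and growth arrest, gave 175, 213 and 228 units in shRNA cultures, against 199, 226 and 185 units in control cultures. The groups overlapped, and the log2 change of -0.0048 had a wider interval, -0.26 to 0.25.

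The change of Gadd45a exceeded that of each of the 4 other Gadd45 probe sets by 0.38 to 0.45 on the log2 scale. Each of these 4 comparisons gave p = 0.1 in an exact two-sided permutation test, also after Benjamini-Hochberg adjustment, which is the smallest that 3 against 3 arrays allows, so the design cannot pass 0.05 by that test.

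The start regions of the 3 Gadd45 genes are shown because 1 of the 3 transcripts passed the test. Each runs from 250 bases before to 50 after the start of the gene on its own strand, from RefSeq on GRCm38.p6, and matches of the motifs below are in capitals. The Gadd45a window is chr6:67037358-67037657 on the minus strand, the Gadd45b window chr10:80929841-80930140 on the plus strand and the Gadd45g window chr13:51846425-51846724 on the plus strand.
Gadd45a: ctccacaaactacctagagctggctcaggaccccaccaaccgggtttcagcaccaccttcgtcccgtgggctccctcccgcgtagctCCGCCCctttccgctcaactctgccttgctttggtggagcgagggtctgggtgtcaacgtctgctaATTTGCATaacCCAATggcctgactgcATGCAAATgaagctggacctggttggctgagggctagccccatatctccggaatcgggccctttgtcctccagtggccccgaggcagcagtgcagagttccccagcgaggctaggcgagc
Gadd45b: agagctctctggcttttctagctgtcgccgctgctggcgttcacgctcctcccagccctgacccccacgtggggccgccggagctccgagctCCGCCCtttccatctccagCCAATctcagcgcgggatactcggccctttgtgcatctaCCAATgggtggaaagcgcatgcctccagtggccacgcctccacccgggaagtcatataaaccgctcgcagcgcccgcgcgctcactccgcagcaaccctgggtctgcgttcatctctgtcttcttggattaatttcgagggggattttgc
Gadd45g: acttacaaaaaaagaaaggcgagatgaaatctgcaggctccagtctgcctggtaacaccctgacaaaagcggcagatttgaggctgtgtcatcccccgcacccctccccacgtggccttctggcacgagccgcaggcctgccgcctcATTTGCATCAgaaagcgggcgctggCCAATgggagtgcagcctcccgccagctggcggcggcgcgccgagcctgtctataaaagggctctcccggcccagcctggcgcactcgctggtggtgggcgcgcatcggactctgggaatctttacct

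The motifs were searched on both strands as exact letters. The Gadd45a window holds CCAAT, the core of NF-Y sites, 1 time, the GC box GGGCGG 1 time and the octamer ATTTGCAT, the site form of POU factors, 2 times, once on each strand to either side of CCAAT. The octamer was added to the search after these sequences had been read. It is found in 1.74% of 32851 start regions of the same length and at least 2 times in 0.107%. Gadd45g also holds it, 1 time, together with CCAAT 1 time, and Gadd45b holds CCAAT 2 times and the GC box 1 time. CCAAT is found in 37.4% of the start regions and the GC box in 35.7%. The letters TGATGNAA of the ATF4 and C/EBP composite element, found in 3.97%, have 1 match, in Gadd45g, where it overlaps the octamer. None of the 3 windows holds the AP-1 letters TGACTCA, the CRE letters TGACGTCA, the C/EBP letters TTGCGNAA, the single form of the NF-kappaB site that was searched or the Egr1 letters GCGTGGGCG, which are in 5.2%, 1.79%, 0.798%, 0.155% and 0.612% of all start regions.

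**Figure D3:**
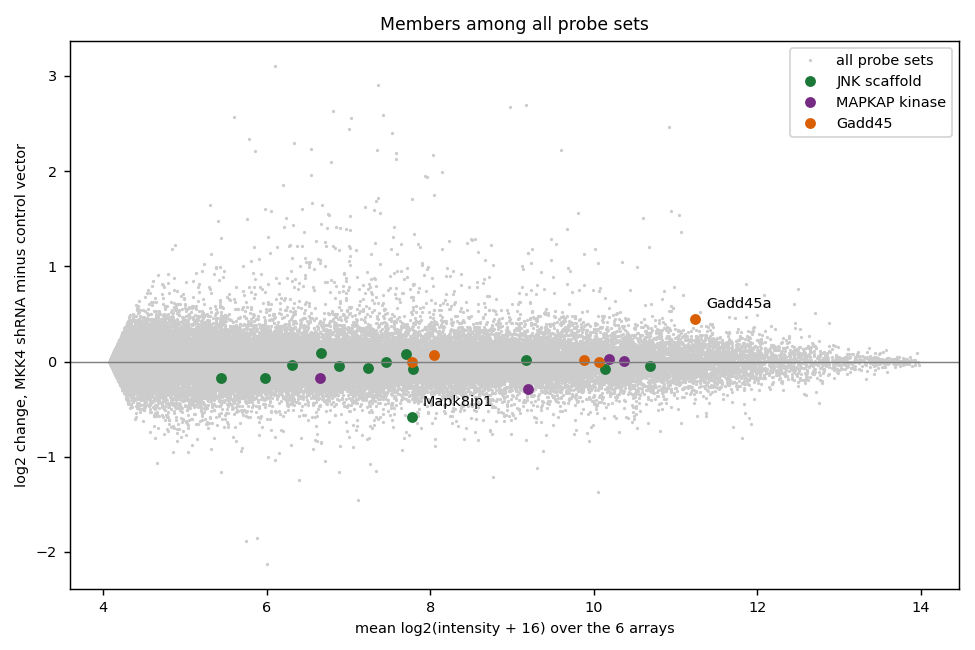
Log2 change (shRNA minus control) against mean log2(intensity + 16) over the 6 arrays for all 45037 probe sets (grey) and the 22 members (coloured by class). Gadd45a at 0.44 and Mapk8ip1 at -0.59 stand at the edge of the grey cloud at their intensity, and the other members lie within it.

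Genes that act with the members were described from lists, with 1 probe set a gene, the brightest, fitted by limma over 18193 genes, of which 11.8% were called (6.39% higher and 5.39% lower) and 24.1% had an unadjusted p under 0.05. These shares include dim genes, while most listed genes lay above background on every array. Probe sets that bright were called more often than all probe sets (9.61% against 6.37%). The list shares below are not matched for brightness, so they do not show an excess. Among 24 cascade kinases 2 rose and 2 fell, 8 (33.3%) having an unadjusted p under 0.05, with a median log2 change of 0.011. These were Map2k6, an activator of p38, at 129 ± 18.7 units in shRNA cultures and 74.5 ± 4.35 in control cultures (log2 0.66), the p38 isoform gene Mapk11 (0.30), Mapk13, another p38 isoform gene, at 1129 ± 77.2 and 1746 ± 37.5 units (-0.63), and Map2k4 itself (SD, n = 3 each). Mapk11 passed in 9 of 16 alternatives, with adjusted p up to 0.532 where its probe sets were averaged, and a dimmer probe set gave -0.12. Map3k4, whose product MEKK4 is the kinase that Gadd45 proteins bind, gave -0.14 and did not pass (limma adjusted p = 0.215).

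Of 16 other scaffolds and adaptors 1 rose and 0 fell in limma, while 6 (37.5%) had an unadjusted p under 0.05, against 24.1% of all genes. The riser was Tab2, whose product links TAK1 to ubiquitin chains, at 2279 ± 102 units in shRNA cultures and 1903 ± 105 in control cultures (SD, n = 3 each). Its log2 change was 0.24, and its other probe set gave 0.28. Another list held motor genes and other transport partners of the JIP scaffolds, with App, Lrp8 and Arf6 among the latter. Of its 11 measured genes 0 rose and 1 fell, 4 (36.4%) having an unadjusted p under 0.05. The one that fell was the kinesin light chain gene Klc3, by 0.29 on the log2 scale, which passed in 10 of 16 alternatives with adjusted p up to 0.0695.

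Of 21 other p38 effectors and MK2 substrates 3 fell and 0 rose by limma, 9 (42.9%) having an unadjusted p under 0.05 against 24.1% of all genes, and the median log2 change was -0.062. The heat shock protein gene Hspb1, whose product HSP27 is the classical MK2 substrate, gave 1174 ± 42.6 units in shRNA cultures and 1745 ± 104 in control cultures (SD, n = 3 each), a log2 change of -0.57, and its other probe set gave -0.74. Lsp1, which encodes an actin-binding MK2 substrate, fell by 0.49 and passed in 11 of 15 alternatives. The prostaglandin synthase gene Ptgs2, whose mRNA is stabilised through MK2, fell by 0.31 and passed in 7 of 16, while its other probe set gave -0.10. These are transcript levels and say nothing of phosphorylation, which the array does not measure.

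Of 18 Gadd45 partners and inducers 1 rose and 2 fell, 10 (55.6%) having an unadjusted p under 0.05 against 24.1% of all genes, with a median log2 change of -0.077. Ddit3, which encodes the stress transcription factor CHOP, gave 1071 ± 37.8 units in shRNA cultures and 598 ± 66.7 in control cultures (SD, n = 3 each), a log2 change of 0.81, and a dimmer probe set gave 0.32 without passing. Pcna, the gene of the replication clamp that Gadd45 proteins bind, fell by 0.19, and the immediate early gene Egr1 by 0.26. They passed in 7 and 10 of 16 alternatives, with limma adjusted p up to 0.161 and 0.0696. For Pcna the 0.161 came with chromosome centring, where its log2 change was -0.11. In the probe set fit Pcna did not pass (limma adjusted p = 0.0501). Cdkn1a, which is induced by p53 as Gadd45a is, gave 800 units in shRNA cultures and 819 in control cultures, a log2 change of -0.05 (limma adjusted p = 0.597). Atf4 gave 0.09 and Atf3 0.15, and neither passed (limma adjusted p = 0.113 and 0.203). Cdkn1a, Atf4 and Atf3 were named after their values were seen. Whether p53 or any listed gene bears on the rise of Gadd45a was not tested.

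By likeness over the 6 arrays, the genes that followed the brighter Mapk8ip1 probe set most closely among 9096 brighter genes were Ndufs3 (Pearson r = 0.999), Atp2c2 (0.993) and BC029722 (0.992). Ndufs3, a gene of respiratory complex I, and BC029722 lie on chromosome 2 as Mapk8ip1 does, and Atp2c2, a calcium pump gene, on chromosome 8. The arrays form 2 groups, so r mostly describes a shared difference between groups, and the differences themselves were unequal, at log2 changes of -0.11, -0.72 and -0.44.

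**Figure D4:**
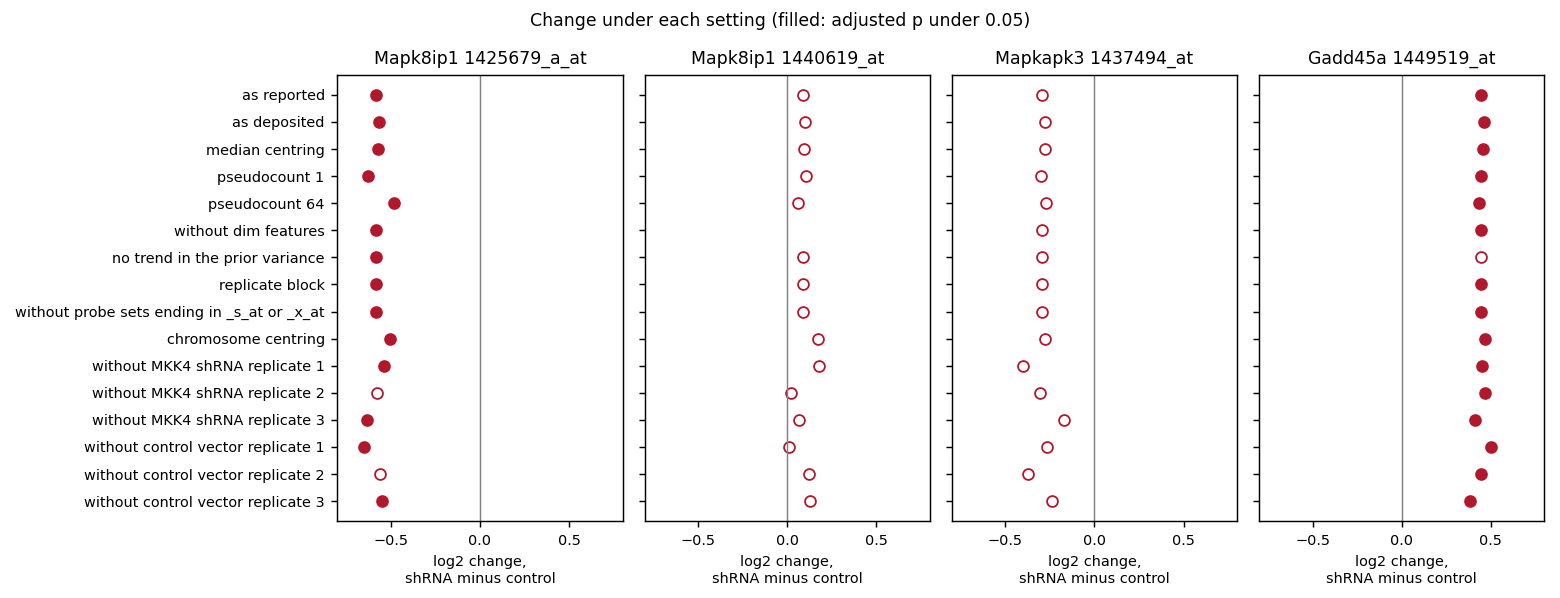
Log2 change (shRNA minus control) of 4 member probe sets as reported and under each alternative, filled where the adjusted p was under 0.05. Gadd45a and the brighter Mapk8ip1 probe set keep their sign and size, from 0.38 to 0.50 and from -0.65 to -0.48, while their calls are lost in 1 and 2 alternatives.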

How the data were processed

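RNA of 6 cultures was read on Affymetrix arrays with 1 colour, as the labels' protocols state. Each probe set has 1 deposited intensity, on a linear scale; how the authors summarised probes, corrected background and normalized is not given in the sources used here. Array medians were nearly equal, and precision is limited by the 6 arrays. A pseudocount of 16 was added, log2 taken and the values quantile-normalized; 64 control probe sets were then left out. Groups were compared in R 4.3.3 with limma 3.58.1 (lmFit, eBayes with a trend, group as the single term), Benjamini-Hochberg adjusted over all probe sets, or over genes by the brightest probe set. A call is an adjusted p under 0.05, and intervals are 95%, per probe set. The platform annotation gave 34945 probe sets 1 gene, with symbols updated through RefSeq (GRCm38.p6). Differences between probe sets of a gene were tested within arrays. Named genes were all members, Map2k4, up to 4 called genes of each list by size and the 3 genes most like the member of largest called change. Markers named otherwise, and Map3k4, Cdkn1a, Atf3 and Atf4, were chosen after their values were seen. Members, lists and tests were chosen with earlier results of these data known. The listed genes Map2k7, Map3k13, Klc2, Rps6ka4, Ccnb1, Trp53, Nfkb1 and Tdg were not analysed here. The fit was tested on simulated data with 200 changed probe sets. It recovered 73% of those changed by 1 on the log2 scale. Of those changed by a smaller amount, nearer in size to the called members, it recovered 32%. The data gave 2868 calls among 45037 probe sets, far more than the 200 changed in the simulation. The adjustment therefore works at a different cutoff in the data, and these shares do not give the recovery there, which was not estimated. A probe set that was not called may still have changed.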

Additional observations from a re-analysis of the deposited data

How the results depend on the processing

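The fall of the brighter Mapk8ip1 probe set and the rise of Gadd45a kept their direction under all 15 alternatives run on probe sets. The 2 calls among members were 1 without a trend in the prior variance, where 0 were higher, and 1 to 2 when each array was left out in turn, with 1 higher throughout and 0 or 1 lower. With all probe sets of a gene averaged, 1 member gene was called instead of 2. Over all probe sets the 2868 calls were 1842 as deposited, 4309 without the dimmer probe sets or genes, 941 without the trend, 1139 with the replicate block and 1185 to 1846 with 1 array left out. The split of calls was 1610 higher and 1258 lower as reported, 1229 and 613 as deposited and 1256 and 732 with centred medians. The Mapk8ip1 difference between probe sets gave 0 calls with a pseudocount of 1, with the replicate block, with 1 array left out and without the dimmer probe sets or genes, which drops one of the pair. Its adjusted p was 0.0713 with a pseudocount of 1. Among 19 called members and listed genes the count was 33 without the dimmer probe sets or genes, 11 without the trend and 10 to 18 with 1 array left out. Where a cause is not named, the cause was not tested.

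Some probe sets changed sign, none of them called. Their reported changes were near 0 except that of the dimmest Spag9 probe set (-0.17). With 1 array left out the log2 changes ran from -0.12 to 0.0026 and from -0.10 to 0.046 for the dimmer Mapk8ip3 probe sets, from -0.31 to 0.018 for the dimmest Spag9, from -0.013 to 0.054, -0.15 to 0.13 and -0.099 to 0.013 for Sh3rf1, from -0.042 to 0.038 for Mapkapk2, from -0.0031 to 0.052 for Mapkapk5, from -0.036 to 0.020 and -0.023 to 0.069 for Gadd45b and from -0.084 to 0.091 for Gadd45g. Sh3rf1 1421270_at gave 0.0078 as deposited, 0.0035 with centred medians and 0.018 with chromosome centring, Gadd45g 0.011 as deposited and 0.0065 with centred medians, and Mapkapk2 -0.011 with chromosome centring.

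Replicate letters are shared between groups but did not pair the samples. Same-lettered cultures correlated at -0.034, -0.0076 and -0.11 in their deviations from the group means, and no culture correlated best with its own letter. With the replicate block Gadd45a (adjusted p = 0.0395) and Mapk8ip1 (0.0261) were still called, and the Mapk8ip1 difference between probe sets was not (0.186). Background subtraction could not be varied on summarised values. The dim Spag9 probe sets lie near background and limit what their values show.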

Other observations

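Start regions were found for 8 of the 10 member genes, 10 regions in all. Apart from the Gadd45 genes, Mapk8ip3 held the GC box 2 times and CCAAT 1 time, the upstream Spag9 region the GC box 4 times, the other Spag9 region CCAAT 2 times and Mapkapk2 the GC box 1 time. The Mapkapk3 and Mapkapk5 regions held none of the 9 motifs searched, which says only that these letters are not in those windows.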
